A study of Sus scrofa with 6 samples.

Results

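The motile cilia and intraflagellar transport genes described here are 26 of the 11742 genes that could be tested in lung of pigs after extended partial hepatectomy (ePHx). They were chosen by their symbols alone. Taken were the families whose symbols start with DNAH, DNAI, DNAL, IFT, RSPH, TEKT, BBS, SPAG, SPEF or CFAP, together with FOXJ1, RFX2, RFX3, CCDC39, CCDC40 and HYDIN, as the array annotation spells them. Lung biopsies of 6 adult male pigs were compared, 3 control and 3 MSC-treated, with a different animal on each array. All 6 animals had undergone ePHx. Control animals received the vehicle, a Ringer solution, and MSC-treated animals received porcine bone marrow mesenchymal stem cells differentiated towards hepatocytes (pBM-MSC) through a central vein. A biopsy is a piece of mixed tissue, and the share of airway in each piece was not given. No treatment other than these was labelled.

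Motile cilia beat on the ciliated cells of the airway and move mucus towards the throat. Each is built around an axoneme, a cylinder of microtubule doublets around a central pair. Dynein arms slide the doublets against each other, and radial spokes, the central pair and the molecular ruler of CCDC39 and CCDC40 order this movement. Intraflagellar transport (IFT) carries building blocks along the axoneme, and the BBSome, a complex of Bardet-Biedl syndrome proteins, works as a cargo adaptor on these trains. Most cell types can carry a primary cilium, which also needs IFT and the BBSome, so these members mark the ciliated airway cell less sharply than dynein arms or FOXJ1, the transcription factor that switches on the motile cilia programme.

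The annotation named 26 probe sets of these families under 25 symbols. The symbol DNAH7 stood on 2 probe sets, 1 on chromosome 15 and 1 on chromosome 13. The chromosome 13 set carries a gene identifier that the gene name tables call DNAH12, and it is called DNAH12 here. No probe set was listed under a DNAI, TEKT or CFAP symbol, nor under RFX2, RFX3 or CCDC39. Through the same tables a further 25 genes of these families were found that the annotation lists under another symbol, CCDC39 and TEKT2 among them. They are described as a second list. The chromosome was the same in the array annotation and in the RefSeq gene table for each of the 48 genes, of the 51 in both lists, for which the table gives one. All 26 probe sets of the first list were designated unique by the array's cross-hybridization class. No sequences of these genes are shown.

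The arrays correlated with each other at 0.963 to 0.989 across genes. SFTPC, which encodes a surfactant protein of alveolar type 2 cells, lay between 12.27 and 12.54 on the log2 scale in the 6 arrays, so the lung label was borne out. Of 5 such alveolar type 2 genes measured, 0 passed the thresholds below. A mark, the letters b-T, stands in the names of control 1, control 3 and MSC-treated 2 and is missing from those of the other 3 arrays. What it stands for is not given in the sources used here. Marked and unmarked arrays did not overlap in 23% of all genes, in 3 of the 26 members and in 4 of the 25 genes of the second list.

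No cilia gene of the first list differed between the groups by the study's thresholds, which are p under 0.05 without adjustment and a log2 difference of 0.5 or more in size. The study applied them to lung signals annotated differently and corrected for a batch effect of processing, whereas the signals here are uncorrected. The count was 0 of 26 higher and 0 of 26 lower in MSC-treated lung. Among all genes tested, 0.656% were higher and 1.22% lower by the same rule in limma, together 1.87%. The number of members with an unadjusted p under 0.05 was 0 as well, and the smallest unadjusted p among the 26, in limma's fit of all genes together, was 0.0826. With the mark as a covariate 0 of 26 members were past the thresholds, where 2.92% of all genes were. After Benjamini-Hochberg adjustment over all 11742 genes 0 genes passed 0.05. The log2 fold changes were negative for 13 members and positive for 13, and their median was 0.0020, beside -0.0032 over all genes.

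**Figure D1:**
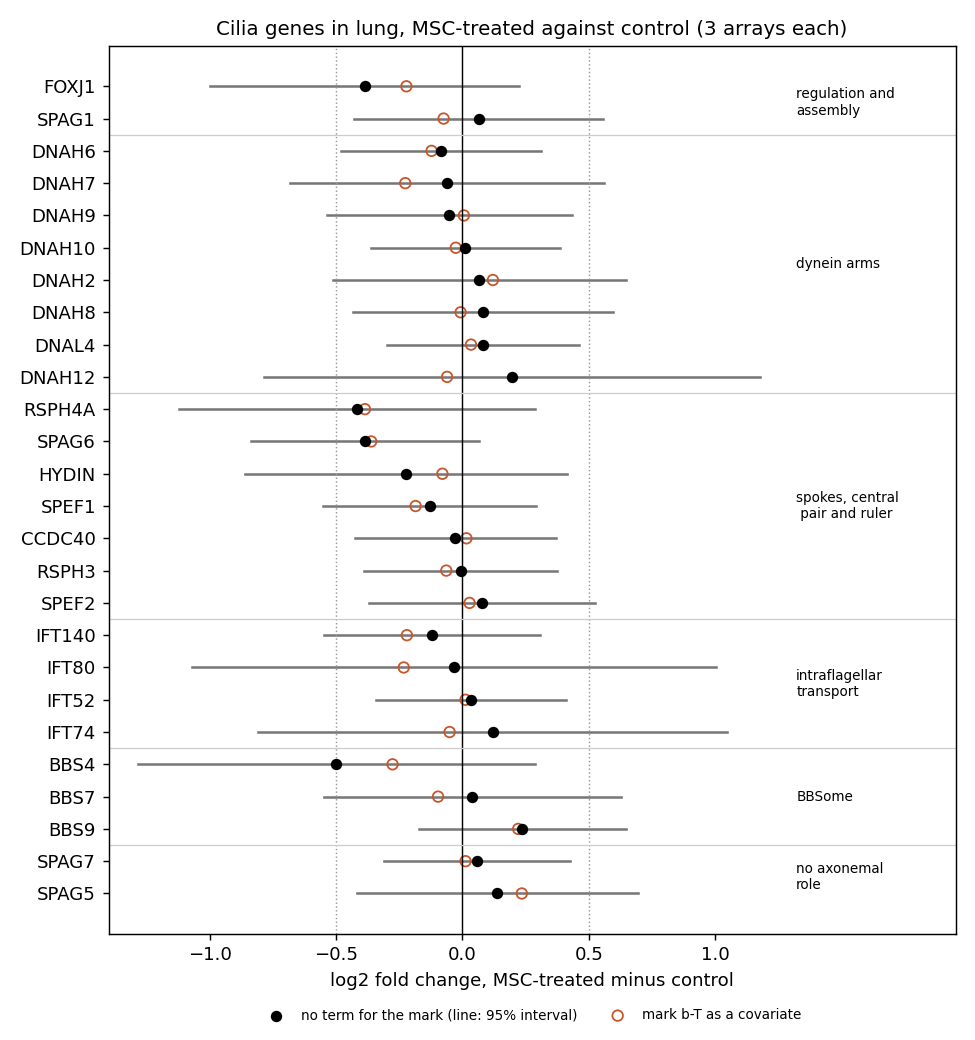
Log2 fold change (MSC-treated minus control, 3 arrays each) of the 26 cilia genes, grouped by role. Black points and lines are the estimates with 95% intervals from limma, open circles the estimates with the mark as a covariate, and dotted lines the threshold of 0.5. Every line crosses 0, and the estimates run from -0.50 for BBS4 to 0.24 for BBS9.

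The precision of these differences was limited by the 3 arrays in each group. The 95% interval reached 0.37 to 1.04 to either side of the estimate. For 7 of 26 members the whole interval lay inside -0.5 to 0.5. For 21 of 26 it lay inside -1 to 1. The others, BBS4, RSPH4A, DNAH12, IFT74 and IFT80, had intervals that still held a change of 1 on the log2 scale.

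FOXJ1, the regulator of motile ciliogenesis, was measured on chromosome 12, and each of its values lay above the mean of the 23 antigenomic background probe sets, which match no pig sequence by design and averaged 3.88 to 4.24 in the 6 arrays. Its log2 signals were 7.01, 6.88 and 7.47 in controls 1 to 3 and 6.28, 7.16 and 6.77 in MSC-treated 1 to 3. MSC-treated 2 lay above both control 1 and control 2, and the lowest value was that of MSC-treated 1. The group means were 7.12 ± 0.31 and 6.73 ± 0.44 (SD, n = 3). The log2 fold change was -0.39 with a 95% interval of -1.0 to 0.22 (limma p = 0.181, exact permutation p = 0.4). The permutation test compared 3 arrays with 3, two-sided, and cannot give a p below 0.1. FOXJ1 was higher in each of the 3 marked arrays than in any unmarked array. It was among the 3 of 26 members split by the mark, against 23% of all genes. With the mark as a covariate the log2 fold change was -0.22, and it was -0.08 within the marked and -0.36 within the unmarked arrays. It shrank to -0.16 without MSC-treated 1 and to -0.21 without control 3, and was -0.60 without MSC-treated 2. In tissue pieces, fewer ciliated cells and less RNA per cell cannot be told apart, here and for all genes below.

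SPAG1, a cytoplasmic factor that takes part in the preassembly of dynein arms, had a different order. It reached 6.27, 6.97 and 6.45 in controls and 6.71, 6.48 and 6.69 in MSC-treated lung. The groups overlapped fully, since the lowest and the highest value both came from controls. Its log2 fold change was 0.06, and it fell to -0.07 with the mark as a covariate. In contrast to FOXJ1, SPAG1 was lower in each marked array than in any unmarked array.

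The 8 dynein arm genes had estimates close to 0, from -0.08 for DNAH6 to 0.19 for DNAH12, with a median of 0.04. DNAH2, DNAH6, DNAH7, DNAH10 and DNAH12 encode heavy chains of inner arms and DNAH8 and DNAH9 heavy chains of outer arms, while DNAL4 encodes a light chain. DNAH6 read 6.19, 6.58 and 6.56 in controls and 6.45, 6.35 and 6.28 in MSC-treated lung. Its MSC-treated values all fell inside the range of the controls. DNAL4 read 5.66, 5.64 and 5.73 in controls and 5.94, 5.54 and 5.80 in MSC-treated lung, which gave a log2 fold change of 0.08 with an interval of -0.30 to 0.46. Both the highest and the lowest DNAL4 value were those of treated animals.

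DNAH12 varied more between animals than the other dynein genes. It read 6.37, 7.54 and 7.21 in controls and 8.09, 6.72 and 6.90 in MSC-treated lung, a range of 1.72 over the 6 arrays. MSC-treated 1 was the highest and control 1 the lowest array. Its log2 fold change of 0.19 had an interval of -0.79 to 1.17, and with the mark as a covariate it was -0.06. DNAH7 read 5.97, 6.67 and 6.47 in controls and 6.77, 5.95 and 6.21 in MSC-treated lung. As for DNAH12, its highest value came from MSC-treated 1 and its next highest from control 2.

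The signal of DNAH8 was close to background. It read 4.57, 4.50 and 4.71 in controls and 4.80, 4.23 and 5.0 in MSC-treated lung, against 3.88 to 4.24 for the antigenomic mean. DNAH9 read 6.43, 6.03 and 6.66 in controls and 6.22, 6.21 and 6.55 in MSC-treated lung. Its extremes, control 2 and control 3, were again both control animals, and the log2 fold change was -0.05. DNAH10 and DNAH2 had log2 fold changes of 0.01 and 0.07.

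Of the 7 genes of the spokes, the central pair and the ruler, 6 had negative estimates, and their median was -0.13. SPAG6, a protein of the central pair, had the smallest p of all members. It read 7.42, 7.72 and 7.74 in controls and 7.36, 7.43 and 6.93 in MSC-treated lung. The groups met at their edges, with MSC-treated 2 just above control 1. The mean was 7.63 ± 0.18 in controls and 7.24 ± 0.27 in MSC-treated lung (SD, n = 3). This is a difference of -0.39 with an interval of -0.84 to 0.06 (limma p = 0.0826, adjusted p = 1, exact permutation p = 0.2). With the mark as a covariate it was -0.36, within the marked arrays -0.15 and within the unmarked arrays -0.58. Without MSC-treated 3 it shrank to -0.23.

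RSPH4A, a component of the radial spoke head, read 6.79, 7.43 and 7.43 in controls and 7.06, 7.14 and 6.19 in MSC-treated lung. The low mean of the MSC-treated group rested on MSC-treated 3, since the other two treated values lay between control 1 and the other controls. The log2 fold change was -0.42 with an interval of -1.12 to 0.29 and came to -0.11 without MSC-treated 3 and to -0.63 without control 1. RSPH3, another radial spoke protein, read 5.62, 5.72 and 5.75 in controls and 5.69, 5.49 and 5.89 in MSC-treated lung. Its log2 fold change was -0.01, with an interval of -0.39 to 0.37 that overlaps that of RSPH4A. The spoke genes were not compared with each other by a test.

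HYDIN, a large protein of the central pair apparatus, read 6.79, 6.58 and 7.47 in controls and 6.35, 6.93 and 6.90 in MSC-treated lung. Control 3 stood highest and MSC-treated 1 lowest, as for FOXJ1. The log2 fold change of -0.22 had an interval of -0.86 to 0.41, and without control 3 it was 0.04. CCDC40, which with CCDC39 forms the ruler that sets the spacing of spokes and inner arms, read 6.22, 6.01 and 6.11 in controls and 5.85, 6.16 and 6.26 in MSC-treated lung. Its log2 fold change was -0.03 and its interval of -0.43 to 0.37 excluded a change of 0.5. SPEF1 and SPEF2, both known as sperm flagellar and central pair proteins, had log2 fold changes of -0.13 and 0.08.

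**Figure D2:**
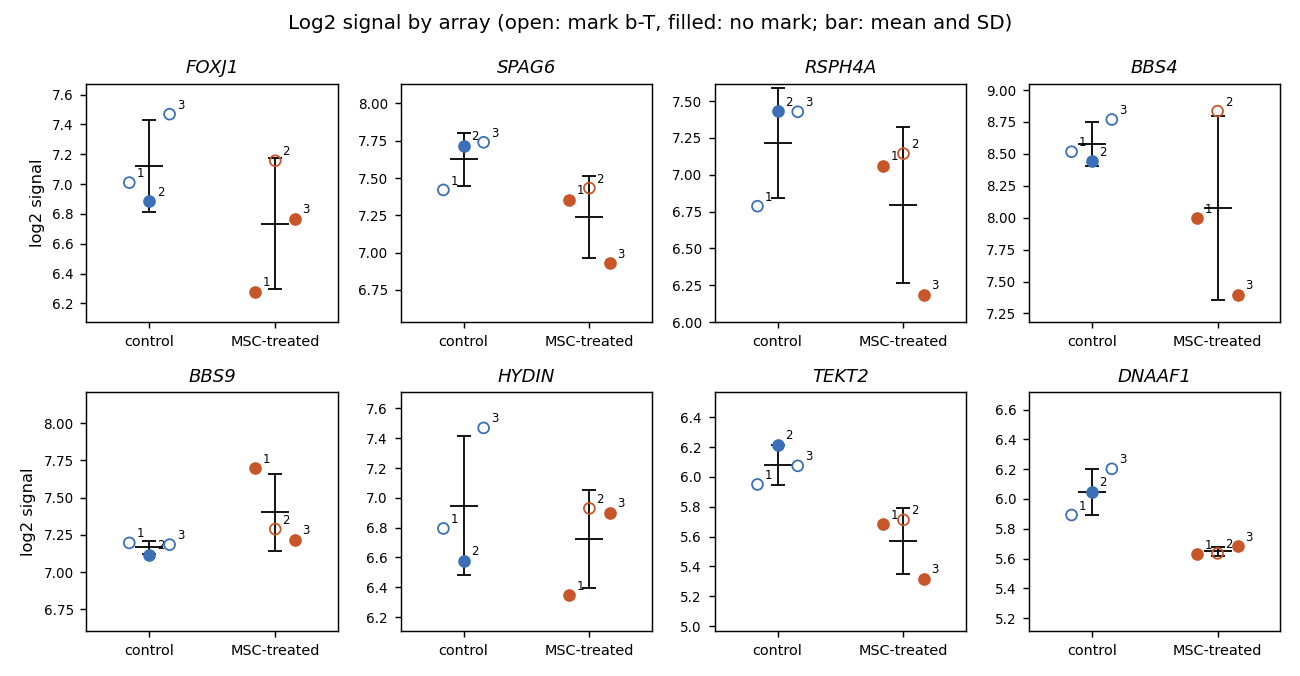
Log2 signal of 8 cilia genes in each array, with the mean and SD (n = 3) of each group. Open points are marked and filled points unmarked arrays, numbers are replicates, and the axes do not start at 0. BBS9, TEKT2 and DNAAF1 are the panels in which the groups do not overlap.

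The 4 IFT genes gave a median log2 fold change of 0.00. IFT140, a core protein of the retrograde complex A, read 6.07, 6.29 and 6.14 in controls and 6.04, 5.77 and 6.31 in MSC-treated lung. Both its lowest and its highest value came from treated animals, and the log2 fold change was -0.12. IFT52, IFT74 and IFT80 belong to complex B, which drives transport to the tip. IFT52 read 6.67, 7.0 and 6.85 in controls and 6.75, 6.95 and 6.93 in MSC-treated lung, and its 6 values lay within 0.33 of each other.

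IFT74 and IFT80 differed far more between animals of 1 group than between the groups. IFT74 read 5.74, 6.46 and 5.68 in controls and 6.95, 5.90 and 5.39 in MSC-treated lung. IFT80 read 6.40, 7.78 and 6.83 in controls and 7.72, 6.95 and 6.25 in MSC-treated lung. In both genes control 2 and MSC-treated 1 were the 2 highest arrays and MSC-treated 3 the lowest. Their log2 fold changes were 0.12 and -0.03, with intervals of -0.81 to 1.05 and -1.07 to 1.0.

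The BBSome genes included both ends of the list. BBS4 had the lowest estimate, with 8.52, 8.44 and 8.77 in controls and 8.0, 8.83 and 7.40 in MSC-treated lung. MSC-treated 2 was the highest of all arrays, whereas MSC-treated 1 and MSC-treated 3 lay below each control. The log2 fold change was -0.50 with an interval of -1.29 to 0.29 (limma p = 0.18, exact permutation p = 0.4). The difference was 0.19 within the marked arrays and -0.74 within the unmarked arrays, and BBS4 was higher in each marked array than in any unmarked array. Leaving out single treated arrays moved it both ways. Without MSC-treated 3 it shrank to -0.16, and without MSC-treated 2 it was -0.88, when BBS4 was past the thresholds in limma. Without MSC-treated 2, 188 of all 11742 genes were higher and 421 lower by the thresholds, against 77 and 143 with all 6 arrays. With the mark as a covariate the log2 fold change of BBS4 was -0.28.

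BBS9 had the highest estimate and was the only 1 of the 26 members whose groups did not overlap, where 7.41% of all genes did not overlap. It read 7.20, 7.12 and 7.18 in controls and 7.70, 7.29 and 7.22 in MSC-treated lung. The lowest treated value exceeded the highest control by a small step, and the mean was raised mainly by MSC-treated 1. On average it was higher by 0.24 on the log2 scale, with an interval of -0.17 to 0.65 (limma p = 0.219), and the exact permutation p was 0.1, the smallest that it can reach. It was 0.09 without MSC-treated 1. BBS7 read 6.12, 6.70 and 6.13 in controls and 6.80, 6.19 and 6.08 in MSC-treated lung, with a log2 fold change of 0.04.

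SPAG5 and SPAG7 share the symbol of the sperm-associated antigens but are not known as parts of the axoneme, and SPAG5 is a protein of the mitotic spindle. SPAG5 read 5.56, 4.74 and 4.87 in controls and 5.29, 5.26 and 5.03 in MSC-treated lung. SPAG7 read 7.22, 7.14 and 7.06 in controls and 7.33, 7.02 and 7.26 in MSC-treated lung. The groups overlapped in both genes, and the log2 fold changes were 0.14 and 0.06. Without these 2 genes the median of the remaining 24 was -0.02.

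The members did not follow 1 common order of the arrays. Control 2 and MSC-treated 1, both unmarked, were the 2 highest arrays for SPAG1, DNAH7, DNAH12, IFT74, IFT80 and BBS7, that is for 6 of 26 members or 23.1%, where the share was 15.6% over all genes. Control 3 was the highest array for 6 other members, FOXJ1, HYDIN, DNAH9, DNAH10, SPAG6 and SPEF1, against 15.2% of all genes. MSC-treated 3 was the lowest array for 6 members, including RSPH4A, SPAG6 and BBS4, against 18.3% of all genes. MSC-treated 2 was the lowest for 9 members, most of them dynein, spoke or central pair genes, against 13.5% of all genes. The antigenomic background mean was also highest in control 2 (4.24) and MSC-treated 1 (4.23), and lowest in control 1 (3.88) and MSC-treated 2 (3.90). It was 4.03 in control 3 and 4.14 in MSC-treated 3, and so lower in each marked array than in any unmarked array. These patterns were noticed in the values and were not tested. Over the 26 members the range between the highest and the lowest array had a median of 0.71, close to 0.67 over all genes, and ran from 0.30 to 1.72.

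**Figure D3:**
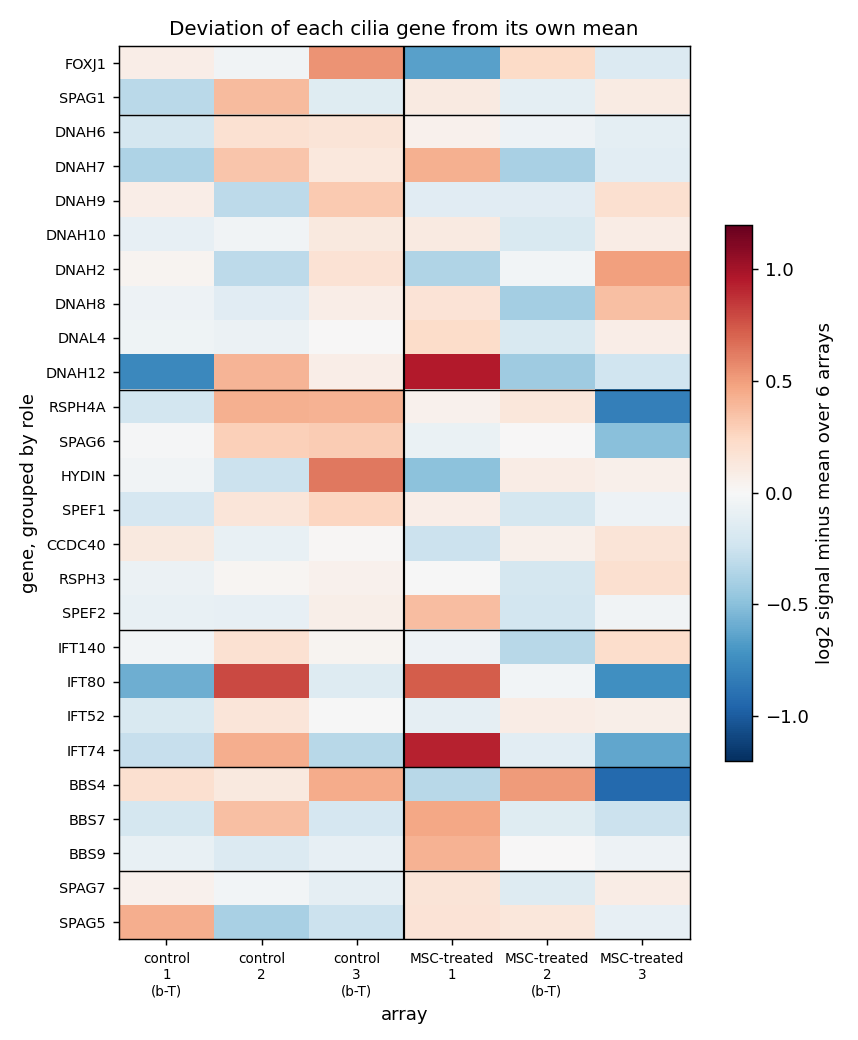
Deviation of each of the 26 cilia genes from its own mean over the 6 arrays, in log2 units, with genes in rows grouped by role and arrays in columns. Red is above and blue below the mean, and arrays with the mark are labelled b-T. DNAH12, IFT74 and IFT80 are high in control 2 and MSC-treated 1, and BBS4 and RSPH4A are lowest in MSC-treated 3.

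**Figure D4:**
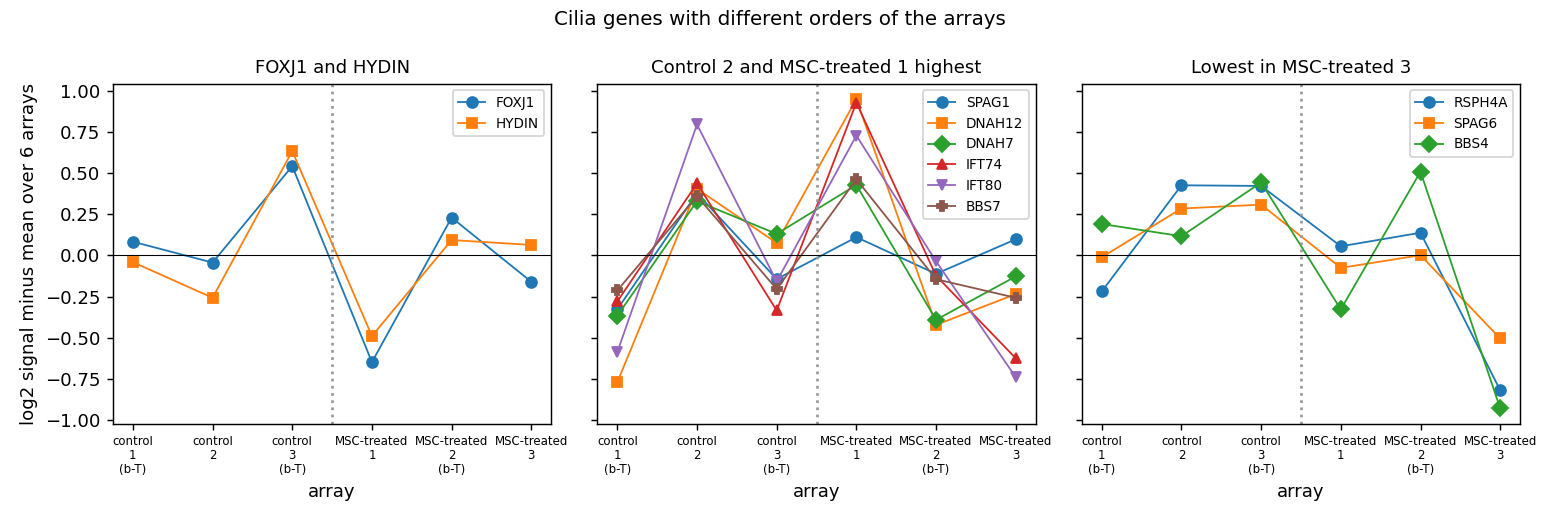
Log2 signal minus the gene's mean over the 6 arrays, for 3 sets of cilia genes that were picked by their order of the arrays. FOXJ1 and HYDIN peak in control 3, 6 other genes in control 2 and MSC-treated 1, and RSPH4A, SPAG6 and BBS4 fall lowest in MSC-treated 3.

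Taking the median over the 26 members in each array gave 6.25, 6.58 and 6.5 in controls and 6.48, 6.21 and 6.27 in MSC-treated lung. The group means were 6.44 ± 0.18 and 6.32 ± 0.14 (SD, n = 3), and the groups overlapped. Control 1 and MSC-treated 2, which gave the 2 lowest medians, are both marked arrays. Control 3, also marked, lay above MSC-treated 1 and MSC-treated 3, which are unmarked.

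In the second list, of 25 genes under other symbols, 1 passed the thresholds, in the downward direction, against 1.22% of all genes. Of the 25, 18 had negative and 7 positive estimates, and the median was -0.10. The gene was TEKT2, which encodes tektin-2, a filament protein bound to the doublet microtubules of the axoneme. It read 5.95, 6.22 and 6.07 in controls and 5.68, 5.71 and 5.32 in MSC-treated lung. Each treated value lay below each control value, in this 1 gene of the 25, where the groups did not overlap in 7.41% of all genes. The log2 fold change was -0.51 with an interval of -0.92 to -0.10 (limma p = 0.0207, adjusted p = 1, exact permutation p = 0.1).

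The call of TEKT2 stood at the edge of the fold threshold. With the mark as a covariate the estimate stayed at -0.51, and it was -0.30 within the marked and -0.72 within the unmarked arrays. Without control 2 it was -0.44, without control 3 -0.51, without MSC-treated 3 -0.38 and with array weights -0.44, and in each of these settings TEKT2 missed the thresholds. TEKT3 and TEKT5, the other tektins measured, had log2 fold changes of 0.18 and -0.06. The 3 estimates thus differed in sign, though the intervals of TEKT3 and TEKT5 held 0.

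CCDC39, the partner of CCDC40 in the ruler, read 5.76, 7.22 and 6.04 in controls and 7.36, 6.02 and 6.21 in MSC-treated lung. Its 3 unmarked arrays were all higher than its 3 marked arrays, and control 2 and MSC-treated 1 were highest. The log2 fold change was 0.19, and -0.16 with the mark as a covariate. CCDC40 itself was lowest in MSC-treated 1, so the 2 ruler genes did not share the order of the arrays.

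The same 2 arrays, control 2 and MSC-treated 1, were highest for 11 of the 25 genes of the second list, or 44%, against 15.6% of all genes. Among them were IFT57 and IFT81 of complex B, DNAL1, a light chain of the outer arm, and SPAG16, a protein of the central pair. MSC-treated 3 was the lowest array for 12 of the 25, against 18.3% of all genes. The BBSome gene BBS5 showed both features, with 5.52, 6.57 and 5.44 in controls and 5.60, 5.49 and 4.46 in MSC-treated lung. Its log2 fold change of -0.66 was the most negative of the second list, with an interval of -1.58 to 0.26, and it shrank to -0.30 without control 2 or without MSC-treated 3. CFAP206, which docks radial spokes in Tetrahymena, had a log2 fold change of -0.57 and an interval of -1.41 to 0.27. It passed the thresholds without control 1, at -0.93, and shrank to -0.24 without control 2 and to -0.34 without MSC-treated 3. Without control 1, 77 of all 11742 genes were higher and 130 lower by the thresholds.

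Of a wider list of 135 symbols of other cilia genes (assembly factors, transition zone, kinesin motors and further axonemal genes), 75 were measured and 0 passed the thresholds in either direction. The median was -0.04, with 45 negative and 30 positive estimates. The 1 gene with an unadjusted limma p under 0.05 was DNAAF1, an assembly factor of dynein arms. It read 5.89, 6.05 and 6.20 in controls and 5.63, 5.63 and 5.68 in MSC-treated lung. Each treated value lay below each control, yet the log2 fold change of -0.40 (limma p = 0.0327, adjusted p = 1, exact permutation p = 0.1) was under the fold threshold. The groups did not overlap in 6 of the 75 genes of this list, against 7.41% of all genes. Of these 6, CEP164 was higher in MSC-treated lung, at 0.41, while DNAAF1, ZMYND10, TTLL9, MKS1 and B9D2 were lower.

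Among the next genes by p were TCTN3, SNTN and B9D2. TCTN3 and B9D2, both proteins of the transition zone at the base of the cilium, had log2 fold changes of -0.76 and -0.36. SNTN, which encodes sentan of the ciliary tip, had a log2 fold change of -0.60. This marker of ciliated airway cells read 7.82, 7.78 and 8.33 in controls and 7.5, 7.85 and 6.79 in MSC-treated lung. Control 3 was its highest array and MSC-treated 3 its lowest. SNTN and TCTN3 were higher in each marked array than in any unmarked array. Marked and unmarked arrays did not overlap in 14 of the 75 genes, against 23% of all genes. With the mark as a covariate TCTN3 was at -0.525, SNTN at -0.43 and B9D2 at -0.27. With all 6 arrays none of the 3 was past the thresholds. TCTN3 was past them without control 2 at -1.06 and with array weights at -0.92, and SNTN without MSC-treated 2 at -0.84. Of all 11742 genes, 148 were higher and 321 lower without control 2, and 188 and 421 without MSC-treated 2. The counts were 100 and 188 with array weights, and 77 and 143 in the fit of all 6 arrays without weights. TCTN3 shrank to -0.41 without control 1 and to -0.49 without MSC-treated 1, while without MSC-treated 3 SNTN shrank to -0.30 and B9D2 to -0.22. Control 2 and MSC-treated 1 were the 2 highest arrays for 30 of the 75 genes of this list, or 40%, against 15.6% of all genes.

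Markers of club and goblet cells, the secretory cells beside the ciliated cells, ranged more widely over the arrays than the cilia genes did, by 3.07 to 4.33 on the log2 scale. Of 7 club and goblet cell markers 3 were measured, and the sum of their linear signals lay between 1021 and 2121 in controls and between 196 and 2167 in MSC-treated lung. BPIFA1, a secreted protein of the airway surface, read 7.32, 6.03 and 9.06 in controls and 4.99, 7.59 and 4.73 in MSC-treated lung. It was highest in control 3 and low in MSC-treated 1 and MSC-treated 3, the 2 unmarked treated arrays. Like FOXJ1 and BBS4, it was higher in each marked array than in any unmarked array. Its log2 fold change was -1.70, and -0.89 with the mark as a covariate. It was -0.91 without control 3, and was past the thresholds without control 2 at -2.42 and without MSC-treated 2 at -2.62. In both of these settings more of all genes were past them than with all 6 arrays. With all 6 arrays none of the 3 markers passed the thresholds, and none was at 0. Of 5 basal cell markers 2 were measured, and KRT5, the keratin of basal cells, was past the thresholds at -0.94 (limma p = 0.00679, exact permutation p = 0.1). By the same rule 1.22% of all genes were lower. KRT15, the other marker, was not past the thresholds, at -0.15 (exact permutation p = 0.7), and its groups overlapped. With the mark as a covariate KRT5 was at -0.83 and KRT15 at -0.02. The sum of the 2 lay between 126 and 146 in controls and between 65.9 and 111 in MSC-treated lung. KRT5 had the higher mean log2 signal, 6.27 against 4.78 for KRT15, and so weighed more in this sum. For the 3 airway cartilage genes measured, the sum lay between 127 and 150 in controls and between 118 and 132 in MSC-treated lung. Whether the share of airway in a biopsy plays a part in the values of FOXJ1, SPAG6, BBS4 or TEKT2 was not tested.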

How the data were processed

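Lung biopsies of 6 pigs (3 per group) were measured on Affymetrix porcine gene arrays, 1 array per animal. The authors deposited log2 signals from RMA, for which the submitters' processing notes name Affymetrix Expression Console 1.4. No batch correction is part of these signals, whereas the paper corrected its lung values for a processing batch before its test. RMA makes the distributions of the arrays equal, so a shift shared by most genes is not visible.

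The main category held 19124 of 27558 probe sets. Among them, 12883 had 1 gene by the symbols of the array annotation, updated through the RefSeq gene table and gene names given (241 had several symbols and 6000 none). Symbols of 3779 probe sets were changed or filled in by the tables. The probe set with the highest mean represented each of the 11742 genes. The build of the annotation's coordinates is not given in the sources used here. Of 6517 probe sets whose transcript description gives Sscrofa coordinates only 22 lay within 1000 bases of them, so no coordinates are printed. The annotation table also holds 6 signal columns whose names match no label. They were not used in tests, and were only set against the labelled values, with which they were identical, to read the letters b-T in their names.

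The group difference was fitted with no covariate in limma 3.58.1 (lmFit, then eBayes; R 4.3.3), all genes together, with Benjamini-Hochberg adjustment over all genes. The fit was tested on simulated data. Single values were compared by exact permutation tests, two-sided. Python 3.11.15 was used for tables and matplotlib 3.10.9 for figures. The alternatives were the mark as a covariate, median centring, quantile normalization repeated, a minimum mean log2 of 5, the mean over probe sets, trended and robust variance, array weights, a replicate block, the t-test named in Methods with a fold above 2.0, the counts without SPAG5 and SPAG7 and leaving out each array.

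The members and lists were chosen with earlier results of these data known, and the second list was found after the annotation had been seen. The members given with all values are FOXJ1, CCDC40, HYDIN, the 3 with the smallest p in each role, those with the largest and smallest fold change and those with the 2 highest and 2 lowest mean signals, and of the other cilia genes the 5 with the smallest p, of which 1 is not reported here. DNAH7, DNAH9, IFT80, RSPH3, TEKT2, BBS5, CFAP206 and the further genes named beside them were chosen after their values were seen.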

Additional observations from a re-analysis of the deposited data

How the results depend on the processing

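The count of the 26 members past the thresholds stayed at 0 in both directions with the mark as a covariate, median centring, repeated quantile normalization, a minimum mean log2 of 5, the mean over probe sets, array weights, trended and robust variance, an adjusted p, the t-test named in Methods with a fold above 2.0 (0 members also had an unadjusted p under 0.05 there) and without SPAG5 and SPAG7. Leaving out each array gave 0 higher and between 0 and 1 lower, the 1 being BBS4 without MSC-treated 2. In that setting 188 of all 11742 genes were higher and 421 lower. With the second list added, which was chosen after seeing the data, 1 gene was lower. The median of the members lay between -0.07 and 0.10 when each array was left out, and was -0.06 with the mark as a covariate. FOXJ1 stayed negative in these settings and lay between -0.60 and -0.16 when each array was left out, and was past the thresholds in none of them.

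Whether the replicate numbers pair the animals is not given. Deviations of arrays with the same number correlated at -0.41, -0.49 and 0.06. Each such pair joins a marked and an unmarked array, so these values cannot decide it. With a replicate block the counts were 0 and 0, and FOXJ1 stayed at -0.39 without passing the thresholds.

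The sign of small estimates changed with the setting. With the mark as a covariate CCDC40 was 0.016, SPAG1 -0.075, DNAH12 -0.061, IFT74 -0.051, BBS7 -0.097, DNAH8 -0.0074 and CCDC39 -0.16, and with array weights DNAH8 was -0.020. Leaving out each array gave -0.11 to 0.092 for CCDC40, -0.41 to 0.038 for HYDIN, -0.084 to 0.27 for SPAG1, -0.0087 to 0.19 for DNAL4, -0.23 to 0.45 for DNAH12 and -0.26 to 0.013 for IFT140. It gave -0.32 to 0.46 for IFT74, -0.050 to 0.11 for IFT52, -0.18 to 0.23 for BBS7, -0.021 to 0.39 for SPAG5, -0.0046 to 0.15 for SPAG7, -0.081 to 0.30 for DNAH8 and -0.22 to 0.63 for CCDC39. The cause was not tested. None of these estimates was past the thresholds in any of the settings. The second deposited table was not run as a separate setting, because its values were identical. Signals near the antigenomic background, as of DNAH8, limit what could be measured.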
